A study of Ovis aries with 6 samples.

Results

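Granulosa cells in which the transcription factor gene WT1 or the signalling ligand gene WNT6 was counted, while the markers of more advanced granulosa cells stayed low, were taken from single-cell data of the ovaries of 6 Hu ewes. They numbered 180 of 2026 cells in the granulosa gate, of 38465 barcodes within the limits on depth and mitochondrial share and of 52290 barcodes in all. Hu sheep are a Chinese breed in which several lambs per birth are common. The 3 ewes of the high-reproduction group (HLS) had litters of at least 3 lambs and the 3 of the low-reproduction group (LLS) had litters below 2, and the labels give no treatment, allele or other factor that separates them. All 6 were killed soon after estrus began, and 1 whole ovary of each was digested with collagenase and trypsin and sequenced as a single 10x Genomics 3′ library, so each ewe was 1 replicate and its follicles of all sizes were mixed. A level is the number of unique molecular identifiers (UMI, which count RNA molecules) of a gene in every 10000 UMI of the cells summed in an ewe.

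Granulosa cells line the follicle around the oocyte. In small follicles they form 1 or a few layers against the basal lamina, and as the follicle grows they multiply and part into cumulus cells beside the oocyte and mural cells along the wall, which take up luteinizing hormone signals and turn towards progesterone synthesis near ovulation. WT1 is a zinc finger factor that maintains the somatic cells of the early gonad, WNT6 is a secreted WNT ligand, IGFBP2 binds insulin-like growth factors and CDH2 (N-cadherin) joins granulosa cells to each other.

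A cell entered the gate with at least 4 UMI in sum of CDH2, FST, INHA and FSHR, and with more of these than of PECAM1, KDR, PTPRC, PDGFRA and INSL3 together. It was kept with at least 1 UMI of WT1 or WNT6, at most 2 of AMH and INHA, none of HTRA3 and JPH1, fewer than 3 of CYP19, and at most 2 of 6 genes of the dividing cell detected. The levels of these genes, the markers WT1, WNT6 and CDH2 among them, are therefore a description of the choice. IGFBP2 was not in the rule, but it was named as a marker when these cells were chosen, so its level is no independent evidence. The cells are called WT1/WNT6 cells here, because the data did not bear out in full the working label of early-type granulosa cells. They were compared with 3 other classes of the gate. These were 449 INHA/AMH-rich cells (at least 3 UMI of INHA and AMH, none of HTRA3 and JPH1), 568 HTRA3/JPH1 cells (at least 1 UMI of these mural markers) and 454 undetected cells, which met every limit but had no UMI of WT1 or WNT6. The other 375 gated cells fell outside these limits.

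The number of WT1/WNT6 cells was 16, 23 and 93 in HLS1, HLS2 and HLS3 and 6, 24 and 18 in LLS1, LLS2 and LLS3. HLS3 thus held more than all other ewes together, and LLS1, with fewer than 10 cells, stayed out of the tests. The cells had 1396 to 38111 UMI, with a median of 9648 UMI and 2963 genes, against medians of 10092 UMI in INHA/AMH-rich, 14897 in HTRA3/JPH1 and 8670.5 in undetected cells. A doublet score marked 12 of them (6.67%), against 5.12% of INHA/AMH-rich, 4.93% of HTRA3/JPH1 and 1.76% of undetected cells, and none was removed. Over all barcodes within the limits it marked 5.218%, a share set in advance by the assumed doublet rate. Each pair of libraries shared 13 to 28 barcodes, and no barcode of a WT1/WNT6 cell recurred among the WT1/WNT6 cells of another ewe.

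As a share of the granulosa gate they made up 9.64%, 6.44% and 13.1% in HLS1, HLS2 and HLS3, and 3.64%, 6.63% and 6.77% in LLS1, LLS2 and LLS3. The exact 95% binomial intervals, which cover counting error only, ran from 5.61% to 15.18% in HLS1, from 4.128% to 9.51% in HLS2 and from 10.7% to 15.8% in HLS3. They ran from 1.346% to 7.747% in LLS1, from 4.294% to 9.704% in LLS2 and from 4.06% to 10.48% in LLS3. The groups overlapped, since the HLS2 share lay below those of LLS2 and LLS3. With doublet-like cells removed they did not, at 10.19%, 6.414% and 13.06% against 3.659%, 5.983% and 5.976% (exact permutation p = 0.1, the smallest that 3 ewes against 3 can give). The mean was 9.73% ± 3.33 in HLS and 5.68% ± 1.77 in LLS (SD, n = 3 each), a difference of 4.05 percentage points that did not pass a two-sided exact permutation test (p = 0.3, where 3 ewes against 3 cannot go below 0.1) and shrank to 2.36 points without HLS3 and to 1.57 points with at least 2 UMI of WT1 and WNT6. Among all barcodes within the limits the cells were rarer, at 0.730% ± 0.750 in HLS and 0.257% ± 0.177 in LLS (SD, n = 3 each; exact permutation p = 0.4), and without HLS3 that difference of 0.473 points shrank to 0.0398. The share of the gate depends on how many cells of each class survived digestion as well as on how many the ovary held, and these cannot be told apart.

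**Figure D1:**
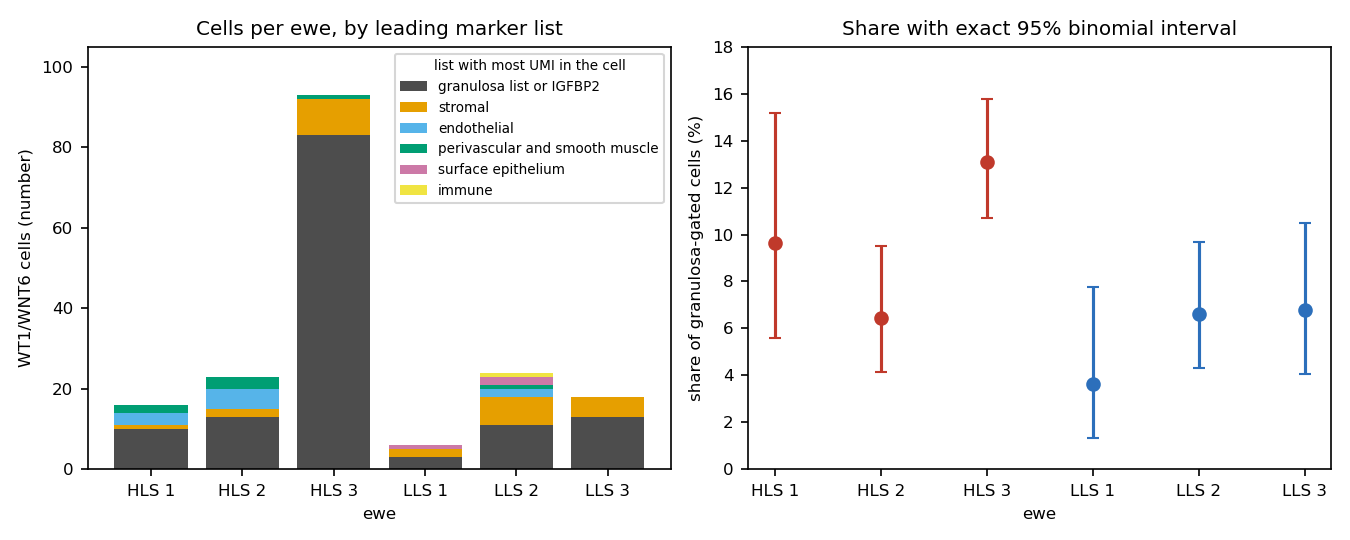
Left, the number of WT1/WNT6 cells in each ewe, split by the marker list with most UMI in the cell (colours); right, their share of granulosa-gated cells in percent with the exact 95% binomial interval (red HLS, blue LLS). HLS3 holds 93 of the 180 cells, and 13.1% of its gate against 3.64% to 9.64% in the other ewes.

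WT1 alone was counted in 132 of the cells, WNT6 alone in 30 and both in 18. Their summed UMI was exactly 1 in 96 cells and at least 2 in 84, so the choice often rested on a single molecule, and the 454 undetected cells lay just outside at 0. At the other limits, 34 cells had the lowest granulosa sum of 4 while 47 cells were left out at 3, 28 had 2 UMI of AMH and INHA while 21 were left out at 3, and 29 were left out for a single UMI of HTRA3 or JPH1. None of the 6 genes of the dividing cell was detected in 142 cells, 1 in 35 and 2 in 3, and 2 cells were left out at 3.

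WT1 reached 2.79, 1.73 and 1.19 UMI per 10000 in HLS1, HLS2 and HLS3 and 2.39, 2.42 and 2.07 in LLS1, LLS2 and LLS3. Its mean of 2.04 ± 0.616 (SD, n = 5 ewes, LLS1 left out, as for all means of WT1/WNT6 cells and the classes set beside them) compared with 0.587 in INHA/AMH-rich and 0.132 in HTRA3/JPH1 cells. WT1 was as high, however, in 15383 endothelial cells of the same ovaries, at 2.31 ± 0.394, and at least 1 UMI was found in 83.3% of WT1/WNT6 cells, in 70.3% of endothelial cells (median 10213 UMI) and in 32.3% of 4310 stromal cells (median 7799 UMI). WNT6 stood at 0.415, 0.178 and 0.405 in HLS1 to HLS3 and at 0.664, 0.329 and 0.519 in LLS1 to LLS3, near the 0.327 of stromal cells, and was all but missing from endothelial cells (0.0205). Neither gene was thus particular to granulosa cells.

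The marker IGFBP2, which the rule did not use, was not higher in WT1/WNT6 than in undetected cells. IGFBP2 measured 16.7, 16.9 and 27.9 UMI per 10000 in HLS1, HLS2 and HLS3 against 2.39, 11.3 and 16.3 in LLS1, LLS2 and LLS3. Its mean of 17.9 ± 6.1 lay below the 23.1 ± 8.85 of undetected cells, close to the 15.2 of INHA/AMH-rich cells and above the 7.51 of HTRA3/JPH1 cells (SD, n = 5). CDH2, a gene of the gate that all classes had to pass, was at 3.97 in WT1/WNT6, 5.14 in undetected, 4.55 in INHA/AMH-rich and 3.77 in HTRA3/JPH1 cells. IGFBP2 was found in 91.7% of WT1/WNT6 cells and in 11.2% of endothelial cells, a cell type in which it stood at only 0.276 UMI per 10000. Leaving out the markers, FOXL2, a factor that holds granulosa identity, was found in 51.7% of WT1/WNT6 cells and 3.29% of endothelial cells, and the receptor gene FSHR, itself part of the gate, in 51.7% and 0.52%.

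TNNI3, a troponin gene also known from granulosa cells of small follicles, was counted at 2.25, 1.11 and 1.41 UMI per 10000 in HLS1, HLS2 and HLS3 and at 2.12, 0.986 and 2.59 in LLS1, LLS2 and LLS3. Its mean of 1.67 ± 0.714 was above that of HTRA3/JPH1 cells (0.552) but below that of INHA/AMH-rich cells (5.86 ± 2.02; SD, n = 5). AMH, a hormone of small growing follicles, was bound by the rule and stood at 0.17 against 2.48 in INHA/AMH-rich cells.

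**Figure D2:**
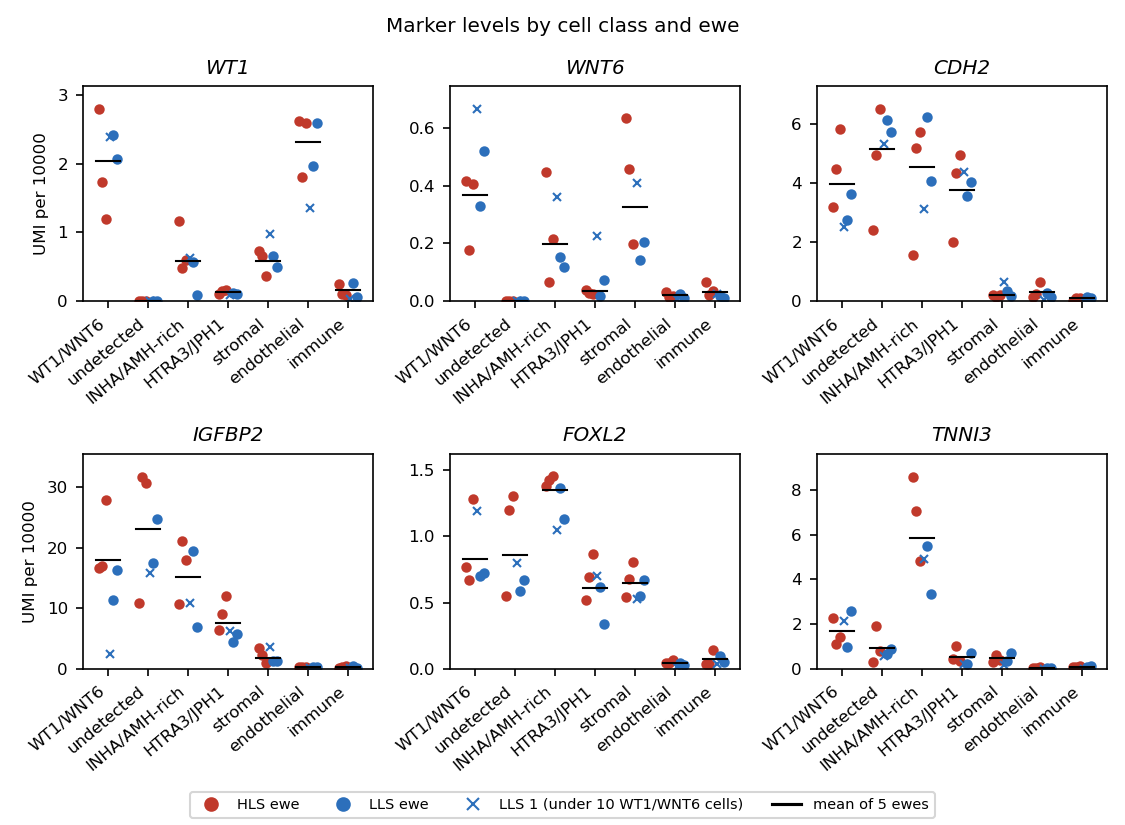
Levels of 6 marker genes in UMI per 10000 (y axis) in the WT1/WNT6 cells, the other granulosa classes and the stromal, endothelial and immune cells (x axis); each point is 1 ewe (red HLS, blue LLS, cross LLS1) and each line the mean of 5 ewes. WT1 is as high in endothelial as in WT1/WNT6 cells, IGFBP2 is highest in undetected cells, and TNNI3 is highest in INHA/AMH-rich cells.

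Markers of other cell types were part of the picture. In 133 cells the granulosa genes and IGFBP2 together had at least as many UMI as any list for another type, and these are called granulosa-led. In the other 47 a list of another type led, stromal in 26, endothelial in 10, perivascular and smooth muscle in 7, surface epithelium in 3 and immune in 1. Granulosa-led cells numbered 10, 13 and 83 in HLS1 to HLS3 and 3, 11 and 13 in LLS1 to LLS3. The granulosa-led share was 73.9%, against 82.4% of INHA/AMH-rich, 77.5% of undetected and 47.5% of HTRA3/JPH1 cells.

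Summed over the stromal list, of which all 9 genes were counted, the WT1/WNT6 cells had 17.9, 49.2 and 26.3 UMI per 10000 in HLS1, HLS2 and HLS3 and 60.1, 59.1 and 47.6 in LLS1, LLS2 and LLS3, against a mean of 16.6 in undetected cells. COL1A1, a fibrillar collagen gene, was its most abundant member at 13.5. The sum was 5.49 ± 1.85 in granulosa-led and 89.4 ± 29.3 in the other WT1/WNT6 cells (SD, n = 5). The split was made on this list, so the difference between those subsets is part of its construction.

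The endothelial list (10 of 10 genes counted, EMCN the most abundant at 0.954) summed to 6.29, 9.16 and 1.02 in HLS1 to HLS3 and 2.92, 3.95 and 3.27 in LLS1 to LLS3, lowest in HLS3. The perivascular and smooth muscle list (10 of 10, MYH11 the most abundant at 4.24) was highest in HLS2, at 23.5, and lay between 7.47 and 16.9 in the other ewes. The surface epithelium list reached 23.2 in LLS1 and 4.44 in LLS2, with a mean of 1.27. Lists for theca (1.46), luteal (1.37), immune (0.198, CD69 at 0), Schwann (0.151, CDH19 and SOX10 at 0), oocyte (0.0693, 9 of 12 genes at 0) and red blood cells (0.0539, HBB at 0) were low. EMCN, a surface sialomucin of vessels, was found in 17.2% of WT1/WNT6 cells, in 9.47% of undetected and in 93.3% of endothelial cells. Each comparison below, except the interaction, is therefore also given for granulosa-led cells alone, a filter chosen after the data had been seen. This filter uses the listed marker genes of granulosa and other cell types, so changes of those genes under it are in part its construction. Many genes were too low in these fewer cells to be tested. Free RNA, doublets and cells of another type were not tested as its source.

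The 48 cells with a WNT6 UMI and the 132 with WT1 alone were not alike in every gene, although only HLS3 had enough of both for a sum and no test was made. Those with WNT6 numbered 4, 2 and 29 in HLS1 to HLS3 and 3, 5 and 5 in LLS1 to LLS3, so most values below rest on a few cells. TNNI3 was higher in the cells with WNT6 in 6 of 6 ewes, at 5.47 against 1.36 in HLS1, 1.84 against 0.988 in HLS2, 2.29 against 1.09 in HLS3, 2.57 against 1.81 in LLS1, 2.86 against 0.596 in LLS2 and 5.44 against 1.11 in LLS3. IGFBP2 was lower in them in 6 of 6 ewes, from 0.614 against 19.7 in HLS2 to 25.3 against 28.9 in HLS3. Both genes were singled out after their values had been seen, and WNT6 was also counted in 18.7% of stromal cells. The summed stromal list was higher in the cells with WNT6 in HLS2 (313 against 4.47 UMI per 10000), LLS1 (144 against 0.679), LLS2 (100 against 50.5) and LLS3 (74.2 against 33.6), and lower in HLS1 (5.2 against 21.4) and HLS3 (10.1 against 32.2), and its part in these differences was not tested.

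The next comparisons ask which genes outside the rule differed between WT1/WNT6 cells and the other granulosa classes. Counts were summed per ewe and class and tested with the ewe as a block in edgeR's quasi-likelihood test, and a gene was called at an adjusted p under 0.05. The classes were cut on genes of these same cells, so the tests describe what went along with that cut. Each library came from its own ewe by the study's methods. With the ewe as a block, p-values measure how far the class difference varied from ewe to ewe, together with counting error.

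Compared with HTRA3/JPH1 cells, WT1/WNT6 cells had higher levels of 69 of 78 ribosomal protein genes, of 19 of 30 immediate early genes and of NMB and ITGA6, and lower levels of most listed mural markers and of 10 of 14 glycolytic enzymes. Of 7456 genes tested 996 were called (13.4%), 515 higher (6.91%) and 481 lower (6.45%). In granulosa-led cells 471 of 3742 genes were called. Of the 996 genes, 693 could be tested there, 426 were called again and 692 had the same direction. Without the TMM scaling factors the split moved to 407 higher and 709 lower, and the median over all genes from 0.01 to -0.09 on the log2 scale. Without LLS3 the number fell to 604.

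Immediate early genes, whose transcripts rise within minutes of a stimulus and also during tissue dissociation, were higher for 19 of 30 tested and lower for none (1 of them, NR4A2, was lower without TMM factors), with a median log2 difference of 0.70 against 0.01 over all genes. FOS, a subunit of the AP-1 factor, stood at 42.7, 30.3 and 29.1 UMI per 10000 in WT1/WNT6 cells of HLS1, HLS2 and HLS3 and at 38.4, 40.6 and 61.4 in LLS1, LLS2 and LLS3. In HTRA3/JPH1 cells of the same ewes it stood at 9.03, 12.6 and 12.6 and at 14.3, 8.19 and 22.3. The classes did not overlap, and the log2 difference was 1.79 ± 0.15 (SE; adjusted p = 8.95e-06). JUNB (1.44 ± 0.12), EGR1 (1.41 ± 0.21), JUN (1.10 ± 0.13) and SOCS3 (1.65 ± 0.22), a feedback inhibitor of cytokine signals, moved with it. The number called was 15 without LLS3, 16 without HLS2 or HLS3 and 14 of 28 in granulosa-led cells. FOS did not separate WT1/WNT6 cells from the other classes, with a mean of 40.8 against 34.2 in undetected and 37.2 in INHA/AMH-rich cells.

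Ribosomal protein genes were higher for 69 of 78, with a median of 0.46, for 62 to 68 when each ewe was left out and for 66 without TMM factors. RPL3, of the large subunit, rose by 0.46 ± 0.07 on the log2 scale (adjusted p = 0.000639), from 26.6 ± 4.38 to 34.0 ± 4.3 UMI per 10000 (SD, n = 5). HTRA3/JPH1 cells also held more UMI per cell, and the part of depth in this difference was not tested.

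Genes listed for mural cells, HTRA3 and JPH1 apart, were lower for 19 of 22 (median -2.13), for 16 to 18 when each ewe was left out and for 16 of 18 in granulosa-led cells. The list mixes genes that the study drew from these ewes with markers it took from earlier work, among them IGFBP5 and CYP11A1. The class was cut on HTRA3 and JPH1, which the study ties to mural cells, so the count is no independent evidence. IGFBP5, which binds insulin-like growth factors, stood at 5.37 ± 1.8 against 33.4 ± 12.6 UMI per 10000, and fell by 2.52 ± 0.17 on the log2 scale. TXN, the redox protein thioredoxin, measured 5.70 ± 1.29 against 19.4 ± 4.56. TIMP1, an inhibitor of matrix proteases, fell by 3.18 ± 0.43 although HLS1 alone reached 98.0 in WT1/WNT6 cells and the other ewes 1.33 to 9.76. CYP11A1, the side chain cleavage enzyme that opens steroid synthesis, fell by 2.12 ± 0.28, and RUNX2, a factor of the periovulatory granulosa cell, by 1.87 ± 0.29. The luteal genes OXT and PTGFR, for oxytocin and the prostaglandin F receptor, were also lower, by 3.89 ± 0.68 and 2.86 ± 0.30. OXT in HTRA3/JPH1 cells came largely from LLS3 (44.9, against 0.212 to 0.556 in the other ewes), and without that ewe its difference was -1.92.

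The largest rises among the called genes that moved alike in every ewe and had at least 1 UMI per 10000 were in ABCB1 (3.27 ± 0.38), CCN3 (3.09 ± 0.55), NMB (2.69 ± 0.26), IL17RB (2.32 ± 0.33), GRB14 (2.22 ± 0.26), ANGPT2 (2.13 ± 0.27) and ITGA6 (2.12 ± 0.18). The CCN3 difference ran from 2.345 to 4.327 when 1 ewe was left out. ABCB1, an efflux pump also found in vessels, was too low to be tested in granulosa-led cells. NMB, a bombesin-like neuropeptide, stood at 4.33, 11.2 and 6.28 UMI per 10000 in HLS1, HLS2 and HLS3 and at 0.398, 8.59 and 5.6 in LLS1, LLS2 and LLS3, against 0.337 to 2.79 in HTRA3/JPH1 cells. Only LLS1, with 6 cells, fell into the range of the HTRA3/JPH1 cells. ITGA6, the laminin-binding integrin α6, stood at 1.3, 3.65 and 2.19 in HLS1 to HLS3 and at 2.12, 2.01 and 2.59 in LLS1 to LLS3, against 0.321 to 0.991. Every WT1/WNT6 value of ITGA6 lay above every HTRA3/JPH1 value.

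Among the 12 steepest falls under the same limits, besides OXT, were XIRP1 (-4.71 ± 0.37), S100A4 (-4.28 ± 0.35), SERPINA1 (-4.01 ± 0.29), MSMB (-3.69 ± 0.41), ENPP1 (-3.38 ± 0.31) and PCSK1 (-3.29 ± 0.28). C14H19orf33 ranked first, but with 3 UMI in WT1/WNT6 cells, all in HLS3, against 890 in HTRA3/JPH1 cells its fitted change is not given. XIRP1 is an actin-binding protein of muscle, SERPINA1 a protease inhibitor and PCSK1 a prohormone convertase. FN1 (fibronectin) and CTSC (a lysosomal protease) fell by 2.98 ± 0.38 and 2.73 ± 0.32. Each rise and fall named in this and the preceding paragraph was called in all 5 fits that left out 1 ewe. In granulosa-led cells C14H19orf33, XIRP1, S100A4, ENPP1 and FN1 were too low to be tested, and the others named, ABCB1 apart, were called.

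Glycolytic enzymes were lower for 10 of 14 (median -0.90), with LDHA, which makes lactate, at 0.36 against 1.31 UMI per 10000 and PKM at -1.46 ± 0.13. The number was 7 without LLS3 and 5 of 13 in granulosa-led cells. Of 18 genes of apoptosis and iron storage 5 were lower and 1 higher (6.45% and 6.91% over all genes). Among them GPX4, which detoxifies lipid peroxides, fell by 0.87 ± 0.16 and the ferritin light chain FTL by 0.76 ± 0.13, while the ferritin heavy chain FTH1 (-0.57 ± 0.13) lost its call without HLS3 (adjusted p = 0.0575). Genes known from small follicles and pregranulosa cells went both ways. TNNI3 (1.80 ± 0.26), IGFBP2 (1.38 ± 0.10), the Notch target HES1 (1.12 ± 0.18) and the gap junction gene GJA1 (0.96 ± 0.14) were higher, and BMP2 (-1.85 ± 0.42), the Notch ligand JAG1 (-1.34 ± 0.27) and the keratin KRT8 (-2.40 ± 0.59, not called without LLS3) were among 5 that were lower, of 14 tested.

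Of 12 basal lamina genes 4 were higher (6.91% over all genes) and none lower, with a median of 0.64, and in granulosa-led cells 3 of 8 were higher and 1 lower, with a median of 0.001. Of the 4, COL4A3 (2.08 ± 0.26), a collagen IV chain, was called whichever ewe was left out, while COL4A4 lost the call without HLS1, LLS2 or LLS3, COL4A5 without HLS3 or LLS3, and LAMA1 without each ewe but HLS2. The 4 tested endothelial markers were all higher, EMCN by 2.78 ± 0.60 (too low to be tested without HLS1), CLDN5 by 2.37 ± 0.56, VWF by 2.20 ± 0.50 (not called without LLS3) and CD34 by 1.33 ± 0.22. CLDN5 was called only in the fit without HLS3 of the 5 that left out an ewe, and none of the 4 was high enough to be tested in granulosa-led cells. Of 7 stromal genes COL1A1 (1.24 ± 0.28) and COL1A2 (1.30 ± 0.31) were higher, neither called without LLS3, and APOD lower (-1.10 ± 0.21), and of 5 perivascular and smooth muscle genes ACTA2 (1.54 ± 0.21) and MYH11 (1.59 ± 0.18) were higher. In granulosa-led cells COL1A1 (0.42, adjusted p = 0.409), APOD (-0.15, adjusted p = 0.707) and ACTA2 (0.49, adjusted p = 0.337) did not pass. COL1A2 was too low to be tested there and MYH11 was called (1.67). Of the 5 stromal genes tested in granulosa-led cells, 2 others were lower and none was higher. Of 20 leading genes that the study lists for early granulosa cells, WT1 apart, 18 were higher, among them SYNE2 (1.33 ± 0.15), MYH11 (1.59 ± 0.18) and CD34, but that list was chosen on these ewes.

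Compared with INHA/AMH-rich cells, WT1/WNT6 cells had lower levels of 5 of 10 genes of cumulus cells and the growing follicle, among them IHH, INHBA and HSD17B1, and a higher level of CDKN1A. The test called 339 of 4524 genes (7.49%), 165 higher (3.65%) and 174 lower (3.85%), and 243 of 2348 in granulosa-led cells. The number was lower in every fit with 1 ewe fewer. It was 119 without HLS2, where all 339 genes kept their direction, 183 without LLS3, 198 without HLS3 and without LLS2, and 211 without HLS1.

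Of 10 genes given for cumulus cells and growing follicles 5 were lower and none higher, with a median of -1.17 against 0.02 over all genes. IHH, the Indian hedgehog ligand by which granulosa cells signal to theca cells, had 4 UMI in all WT1/WNT6 cells and 435 in INHA/AMH-rich cells, and fell by 5.12 ± 0.40 (adjusted p = 0.000236). INHBA, the activin subunit, stood at 0.119, 0.089 and 0.122 UMI per 10000 in HLS1, HLS2 and HLS3 and at 0.531, 0.0411 and 0.467 in LLS1, LLS2 and LLS3. In INHA/AMH-rich cells it stood at 0.851, 3.58 and 1.17 and at 19.7, 1.75 and 2.9, so that no value of the WT1/WNT6 cells reached the range of that class. HSD17B1, which turns estrone into estradiol, measured 1.14 ± 0.212 against 5.36 ± 1.89 (SD, n = 5) and fell by 2.21 ± 0.23. VCAN, a proteoglycan of the expanding cumulus (-1.35 ± 0.21), and the glutathione transferase GSTA1 (-1.31 ± 0.15) were lower as well. All 5 kept their call whichever ewe was left out.

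Of 4 tested genes of DNA replication 2 were lower, DUT and MCM5, and of 6 cell cycle inhibitors 1 was higher, CDKN1A. Over all genes 3.85% were lower and 3.65% higher, and the limit on genes of the dividing cell belongs to the rule. CCND2, the cyclin that FSH induces in granulosa cells, was counted at 0, 0.801 and 0.567 in HLS1 to HLS3 and 1.19, 0.0822 and 0.207 in LLS1 to LLS3, with a mean of 0.331 against 1.55 (log2 difference -2.09 ± 0.38). The nucleotide enzyme DUT fell by 1.21 ± 0.21, and the replication helicase subunit MCM5 by 2.19 ± 0.28 but was too low to be tested without HLS3. CDKN1A, the cell cycle inhibitor p21, rose by 1.32 ± 0.17, from 1.86 ± 0.822 to 4.30 ± 0.805 UMI per 10000. It was at 4.18 in undetected and 4.86 in HTRA3/JPH1 cells, so the INHA/AMH-rich class was the one that stood apart.

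Cholesterol synthesis was lower for 4 of 10 genes (3.85% over all genes) and for 2 without HLS2. Among the 4 were FDPS (-1.45 ± 0.21), MSMO1 (-1.24 ± 0.21) and HMGCS1 (-1.14 ± 0.29, called without LLS3 but not without any other ewe). Of 8 steroid genes 2 were lower, HSD17B1 and FDXR (-2.62 ± 0.34), which passes electrons to the side chain cleavage enzyme. Among 54 genes of oxidative phosphorylation 14 were lower and none higher (median -0.45), but only 3 were without HLS2 or HLS3, 5 without LLS3, 6 without HLS1 and 7 without LLS2. Of 13 glycolytic enzymes 6 were lower, of which ENO1 (-0.89 ± 0.16) was called whichever ewe was left out, and the number fell to 2 without HLS2 and to 3 without HLS3 or LLS2. MIF, a cytokine, fell by 1.67 ± 0.17, and TNNI3 by 1.80 ± 0.27.

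Higher in WT1/WNT6 than in INHA/AMH-rich cells were APOD (2.40 ± 0.23), an apolipoprotein on the stromal list, RUNX2 (2.39 ± 0.34), TM4SF1 (2.04 ± 0.27), ACTA2 (2.03 ± 0.36), ERRFI1 (1.89 ± 0.22), TFPI2 (1.77 ± 0.32) and BHLHE40 (1.75 ± 0.31). APOD was at 2.46 UMI per 10000 against 0.463 in INHA/AMH-rich cells, but at 4.92 in undetected and 5.87 in HTRA3/JPH1 cells, so that the INHA/AMH-rich class was the lowest. RUNX2 was too low to be tested without HLS3, and RUNX2, TM4SF1 and ACTA2 were too low in granulosa-led cells. TFPI2 inhibits proteases, ACTA2 is the actin of smooth muscle and ERRFI1 restrains the EGF receptor. COL1A1 rose by 2.17 ± 0.44, lost the call without LLS2 and differed by only 0.06 in granulosa-led cells (adjusted p = 0.92). Of the mural list 7 of 14 genes were higher, but 2 without HLS3, 4 without HLS2 and 3 of 7 in granulosa-led cells, and TIMP1 (1.75 ± 0.42) was not called without HLS2, HLS3 or LLS2. Of 27 immediate early genes 7 were higher and none lower (3.65% and 3.85% over all genes). FOSL2 (1.26 ± 0.16), IER5 (1.25 ± 0.18) and KLF6 (0.99 ± 0.18) kept the call whichever ewe was left out, whereas SOCS3 lost it without HLS1, ATF3 and CEBPD without HLS2, HLS3, LLS2 or LLS3 and JUNB without any 1 ewe, and the number was 4 without HLS2, HLS3, LLS2 or LLS3. FOS itself differed by 0.13 (adjusted p = 0.387). Ribosomal protein genes did not move as a group, with 2 of 77 lower and a median of -0.04. FOXL2 (-0.64, adjusted p = 0.0575) and IGFBP2 (0.31, adjusted p = 0.437) did not pass.

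**Figure D3:**
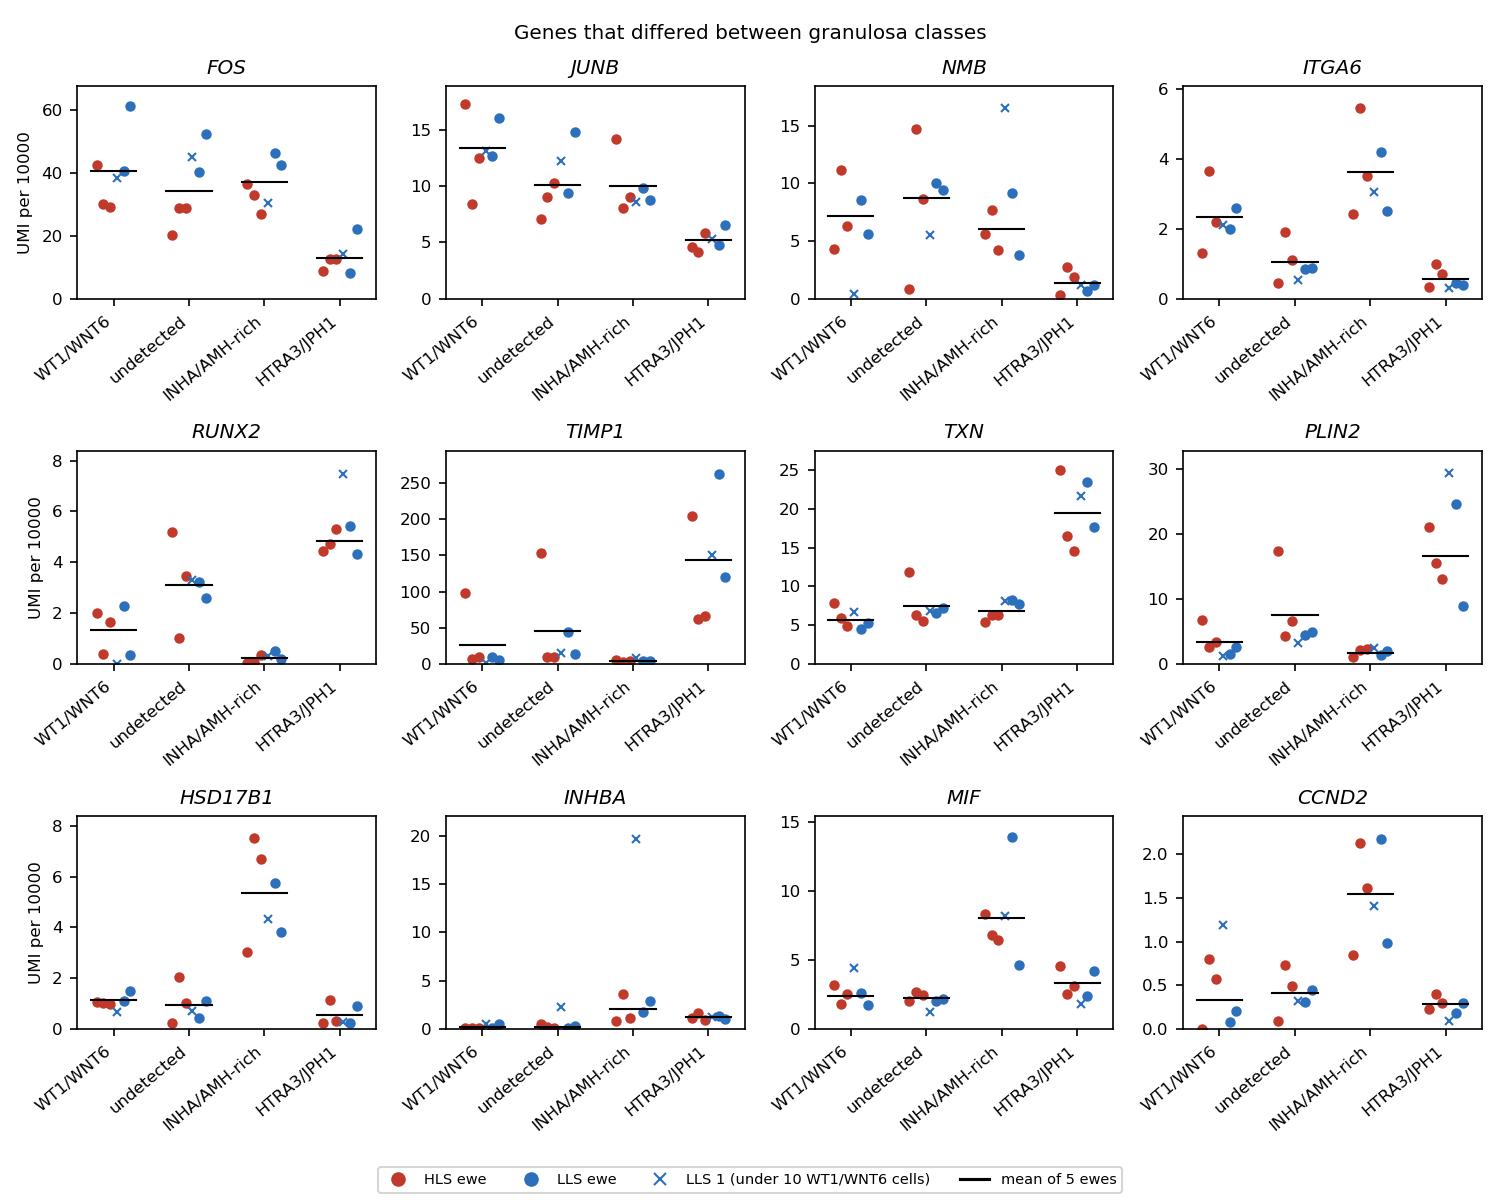
Levels of 12 genes in UMI per 10000 (y axis) in the 4 granulosa classes (x axis); each point is 1 ewe (red HLS, blue LLS, cross LLS1) and each line the mean of 5 ewes. FOS and JUNB are lowest in HTRA3/JPH1 cells, TIMP1, TXN and PLIN2 are highest there, and HSD17B1, MIF and CCND2 are highest in INHA/AMH-rich cells. WT1/WNT6 cells have less PLIN2 and more ITGA6 than undetected cells.

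Undetected cells met the same limits but for WT1 and WNT6, and few genes differed from them. The test called 57 of 5340 genes (1.07%), 49 higher (0.918%) and 8 lower (0.15%), but the number was 13 without LLS3, 16 without LLS2, 27 without HLS2, 8 of 3643 in granulosa-led cells and 8 with doublet-like cells removed. GNG11, a G protein subunit, stood at 4.15, 1.78 and 1.32 UMI per 10000 in WT1/WNT6 cells of HLS1, HLS2 and HLS3 and at 1.19, 2.42 and 1.97 in LLS1, LLS2 and LLS3. In undetected cells it stood at 1.47, 0.572 and 0.465 and at 3.39, 1.07 and 0.779, lower in all ewes but LLS1. The log2 difference was 1.41 ± 0.15 (adjusted p = 0.00129), and 1.25 in granulosa-led cells (adjusted p = 0.0021).

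ITGA6 was higher than in undetected cells in 6 of 6 ewes, by 1.15 ± 0.16, with means of 2.35 and 1.05 UMI per 10000. PLIN2, which coats lipid droplets, was lower in 6 of 6 ewes, at 6.82, 2.58, 3.37, 1.19, 1.52 and 2.65 against 17.4, 4.22, 6.57, 3.23, 4.48 and 4.97 in HLS1 to HLS3 and LLS1 to LLS3. It fell by 1.11 ± 0.14 (adjusted p = 0.0038), and by 0.91 in granulosa-led cells (adjusted p = 0.0019). GNG11, ITGA6 and PLIN2 were called in every fit that left out an ewe, in granulosa-led cells and with doublet-like cells removed. CAV1 (2.09 ± 0.30) of caveolae, EMCN (2.00 ± 0.30), MYLK (1.92 ± 0.30), the kinase of smooth muscle myosin, and PTN (1.69 ± 0.23), a heparin-binding growth factor, were also called whichever ewe was left out, but were too low to be tested in granulosa-led cells, and CAV1 and EMCN lost the call with doublet-like cells removed. Among called genes with the same direction in every ewe and at least 1 UMI per 10000, ABCG2 (2.39 ± 0.48) and TINAGL1 (2.21 ± 0.43) rose most. ABCG2 was not called without HLS1, LLS2 or LLS3, and TINAGL1 not without any ewe but HLS3. Both were too low to be tested in granulosa-led cells, and ABCG2 was found in 77.2% of endothelial cells. CAPRIN2, ISYNA1, CCN3 and PKIG were the other genes higher in granulosa-led cells, and IGFBP5 the other gene lower, though over all WT1/WNT6 cells CAPRIN2 was not called without any 1 of the ewes, ISYNA1 not without HLS1, LLS2 or LLS3 and PKIG not without any ewe but HLS2. CCN3 (1.01, adjusted p = 0.202) and IGFBP5 (0.11, adjusted p = 0.986) did not pass over all WT1/WNT6 cells. RUNX2 was lower by 1.26 ± 0.22 (not called without HLS1) and did not pass in granulosa-led cells (-0.95, adjusted p = 0.0572).

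Of the gene lists, 2 of 19 mural genes (RUNX2 and PLIN2) were lower than in undetected cells, where over all genes 0.15% were lower and 0.918% higher. Of 29 immediate early genes 2 (KLF2 and CCN1) were higher, but none without HLS2 or LLS3 and none of 28 in granulosa-led cells. None of 78 ribosomal protein genes, 14 glycolytic enzymes, 11 genes of cholesterol synthesis or 10 genes known from small follicles was called. TNNI3 (0.85 ± 0.33, adjusted p = 0.409), IGFBP2 (-0.35, adjusted p = 0.536) and FOS (0.25, adjusted p = 0.60) did not pass. Of 7 stromal genes COL1A1 (2.13 ± 0.44) was higher and APOD (-0.92 ± 0.18) lower. COL1A1 was not called without HLS2, LLS2 or LLS3, and APOD not without any ewe but HLS3. In granulosa-led cells none of 4 stromal genes was called, with COL1A1 at -0.005 (adjusted p = 0.9997) and APOD at -0.69 (adjusted p = 0.0728). Undetected cells were also the shallowest class, and the part of depth in their lack of WT1 and WNT6 UMI was not tested.

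**Figure D4:**
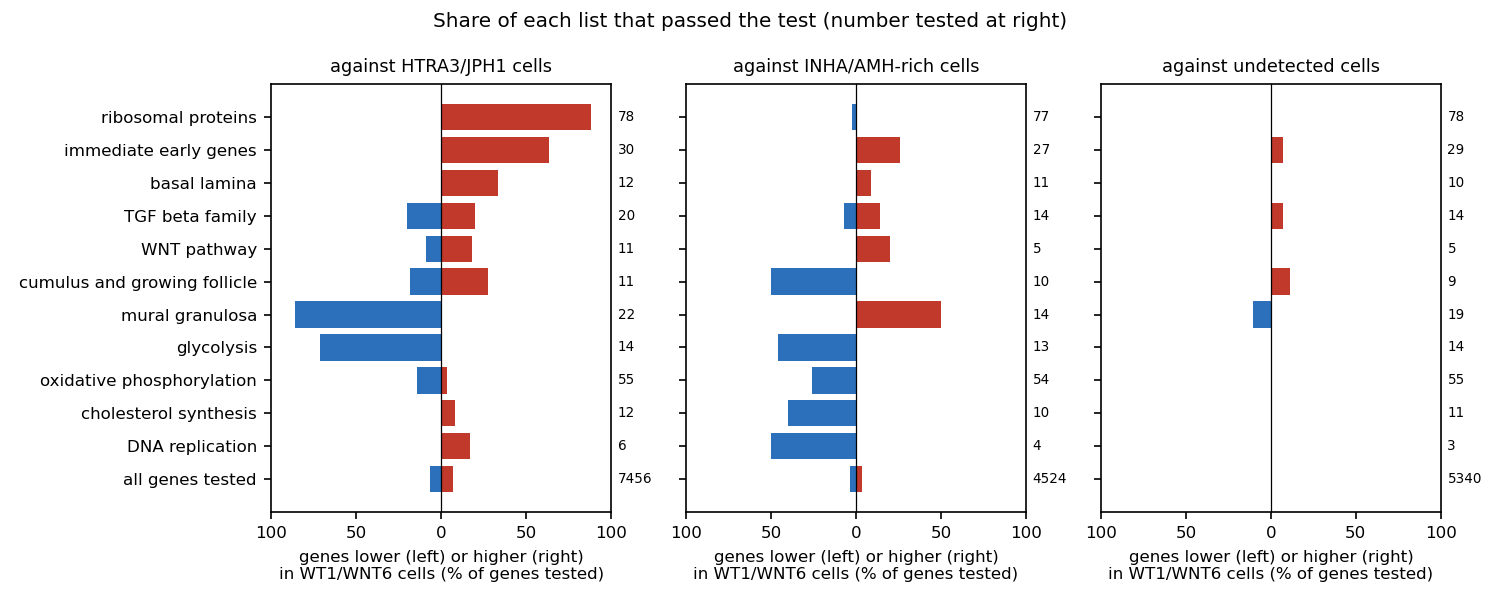
Share in percent of the tested genes of each list that were lower (bars to the left) or higher (bars to the right) in WT1/WNT6 cells than in each of 3 granulosa classes, with the number of genes tested at the right of each row. Against HTRA3/JPH1 cells 69 of 78 ribosomal protein genes were higher and 19 of 22 mural genes lower; against undetected cells few bars rise above 0.

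Signalling pathways named with early follicles moved in single genes. In the TGF-β family, 4 of 20 genes were higher than in HTRA3/JPH1 cells and 4 lower. The co-receptor TGFBR3 (1.5 ± 0.21) was higher, and the ligand subunit INHBA (-2.79 ± 0.36), the activin antagonist FSTL3 (-2.20 ± 0.44) and the inhibitory SMAD7 (-1.21 ± 0.21) were lower in every fit that left out an ewe, while SMAD2 (0.64 ± 0.16) lost the call without HLS3, LLS2 or LLS3 and ID3 (0.56 ± 0.13) without HLS3 or LLS2. Of 11 WNT genes tested the ligand WNT5B was lower (2 UMI in WT1/WNT6 and 402 in HTRA3/JPH1 cells), and TCF7L2 (0.79 ± 0.19, not called without HLS3 or LLS3) and LRP6 (0.71 ± 0.21, not called without any 1 of the 5 ewes) were higher. In the insulin-like growth factor system 2 of 9 were higher, IGFBP2 and the insulin receptor INSR (0.88 ± 0.17), and 2 lower, IGFBP5 and IGF2R (-0.90 ± 0.21, not called without LLS3). Against INHA/AMH-rich cells 1 of 5 WNT genes, 3 of 14 of the TGF-β family and none of 7 of the growth factor system were called, and against undetected cells 0 of 5, 1 of 14 and 0 of 8, where over all genes 7.49% and 1.07% were called and, against HTRA3/JPH1 cells, 13.4%. In granulosa-led cells the growth factor system had 1 of 5 genes higher than in INHA/AMH-rich and 1 of 7 lower than in undetected cells.

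The study's own question was how ewes with large and small litters differ. Within WT1/WNT6 cells, HLS and LLS were compared over 3 and 2 ewes, and edgeR's quasi-likelihood test called none of 3934 genes (0%), with 152 at an unadjusted p under 0.05 and a smallest adjusted p of 0.137. DESeq2 called 3. Without LLS3, which left 1 LLS ewe that was assumed to vary like the others, 25 genes were called, and without HLS3 there were 4. In granulosa-led cells none of 1964 genes was called, with 82 at an unadjusted p under 0.05 and a smallest adjusted p of 0.909. In counts simulated for this design, 58.8% of 4-fold and 4.4% of 2-fold changes were recovered.

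ALDH1A1, which makes retinoic acid, came nearest, at 0.356, 0.311 and 0.213 UMI per 10000 in HLS1, HLS2 and HLS3 and 1.33, 1.69 and 2.07 in LLS1, LLS2 and LLS3. The groups did not overlap, LLS1 included, and the log2 difference was -2.69 ± 0.40 (adjusted p = 0.137 in edgeR and 0.01 in DESeq2). It was found in 5.26% of granulosa-led cells, too few for a test there, in 51.1% of the other WT1/WNT6 cells and in 39.3% of stromal cells. All 7 tested genes of the stromal list were lower in HLS as well, without passing the test, and the part of stromal cells was not tested. LHCGR, the luteinizing hormone receptor, was at 0, 0.178 and 0.324 against 0.133, 1.36 and 2.70, with LLS1 among the HLS values (adjusted p = 0.306 in edgeR, 0.01 in DESeq2 and 0.0408 in edgeR without HLS3). It was the most abundant gene of the theca list, whose sum was 0.277 in granulosa-led and 3.10 in the other WT1/WNT6 cells. FDX1, an electron carrier of steroid synthesis, differed by -1.75 and FRAT1 by 2.32, neither past the threshold.

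The immediate early genes that set WT1/WNT6 cells apart from HTRA3/JPH1 cells did not pass between the groups of ewes. EGR1 measured 0.712, 1.47 and 1.82 in HLS1 to HLS3 and 3.19, 3.95 and 3.37 in LLS1 to LLS3 (log2 difference -1.32 ± 0.38, adjusted p = 0.80), and FOSB 4.33, 13.3 and 8.10 against 20, 17.7 and 18.9 (-1.01 ± 0.39, adjusted p = 0.99). Both were higher in all 3 LLS ewes than in any HLS ewe, a difference that the test over all genes did not call. FOS differed by -0.45 and JUN by -0.74 (adjusted p = 0.99 each), and none of 28 immediate early genes was called, with a median of 0.18 against 0.03 over all genes, which turned to -0.24 in granulosa-led cells (23 tested, none called). IGFBP2 was 0.68 higher in HLS (adjusted p = 0.99), and of 77 ribosomal protein genes and 7 stromal genes none was called (medians 0.31 and -0.75). Whether the groups differed otherwise in WT1/WNT6 than in INHA/AMH-rich cells was tested as an interaction, in which none of 5930 genes was called (0%), with 191 at an unadjusted p under 0.05, but 7 were without LLS3 and 1 without HLS1.

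**Figure D5:**
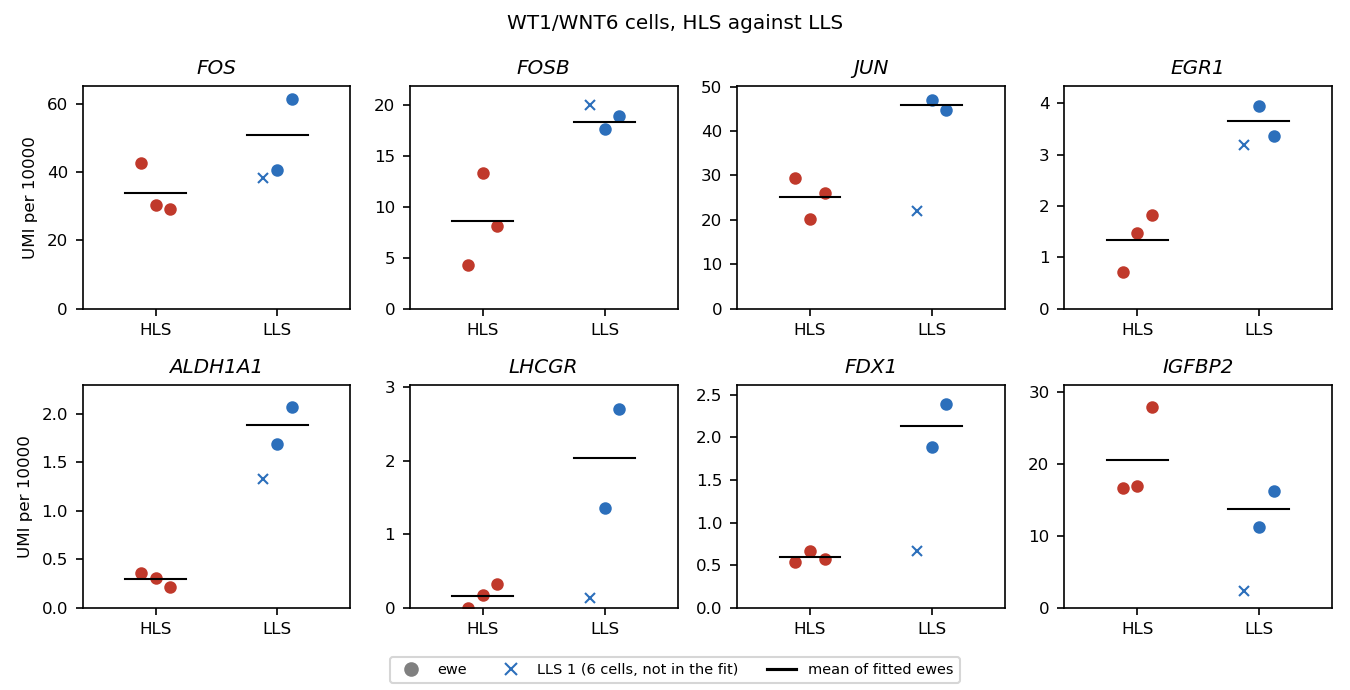
Levels of 8 genes in UMI per 10000 (y axis) in WT1/WNT6 cells of the HLS and LLS ewes (x axis); each point is 1 ewe, the cross is LLS1 with 6 cells, which was not in the fit, and each line is the mean of the fitted ewes. ALDH1A1, FOSB and EGR1 separate the groups in these ewes, but no gene passed the test.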

How the data were processed

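The authors aligned the reads with Cell Ranger and STAR, as named in the submitters' processing notes, and deposited, for each of 6 libraries, unnormalized UMI counts per gene and barcode as a sparse matrix. The genome build of these counts is not given in the sources used here. Of 30574 genes, 25805 symbols matched RefSeq names. The tables hold 0 columns of other samples. Barcodes with at least 1000 UMI and at most 10% UMI in 37 mitochondrial genes were kept, and cells were classed by the rule of the report. Doublets were scored against 2 simulated doublets per cell over 40 neighbours at 0.8% per 1000 barcodes, and removed only as an alternative.

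Counts were summed per ewe and class where an ewe had at least 10 cells, and tested with edgeR 4.0.16 (filterByExpr, TMM, quasi-likelihood test, Benjamini-Hochberg adjustment over all genes tested; R 4.3.3, limma 3.58.1), with the ewe as a block between classes. The labels give separate samples, and the study's methods 1 ewe for each. DESeq2 1.42.0 was an alternative. Shares were compared by exact permutation in Python 3.11.15 (numpy 2.4.6, scipy 1.17.1, pandas 2.3.3, scikit-learn 1.9.0, figures matplotlib 3.10.9). Named genes were the 12 largest rises and falls per class comparison with an adjusted p under 0.05, the same direction in every ewe and at least 1 UMI per 10000, the 10 smallest p between HLS and LLS, and genes of the lists; others named were picked after their values were seen, and a few genes that met the rule are not reported here. The members, the lists and the tests were chosen with earlier results of these data known. The scripts were tested on simulated data with the same spread set for all genes of a comparison. Between classes they recovered 97.8% to 100% of 4-fold and 64.1% to 75.6% of 2-fold changes, with 4 to 7 false calls.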

Additional observations from a re-analysis of the deposited data

Results flagged for a closer look

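In 17 sets of values over the ewes, 1 ewe stood apart from the rest in 5, where chance gives about 1 in 20. HLS3 was far above the others in the number of WT1/WNT6 cells, with 93 against a median of 18 in the other ewes, and in their share of all barcodes within the limits, with 1.6% against 0.283%. FOXL2 in WT1/WNT6 cells was highest in HLS3, at 1.28 against a median of 0.712 UMI per 10000 in the others. The summed perivascular and smooth muscle list was highest in HLS2, at 23.5 against 8.17, and, among the 5 ewes with at least 10 cells, the summed surface epithelium list in LLS2, at 4.44 against 0.282, while LLS1, with 6 cells, had 23.2. Their part in the results was not tested beyond the fits without each ewe.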

How the results depend on the processing

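Leaving out each ewe in turn gave 604 to 975 genes against HTRA3/JPH1 cells (996 with all 5), 119 to 211 against INHA/AMH-rich cells (339) and 13 to 55 against undetected cells (57). It gave 0 to 25 genes between HLS and LLS, of which 25 without LLS3 and 4 without HLS3, and 0 to 7 in the interaction (7 without LLS3, 1 without HLS1). The differences in share ran from 2.36 to 5.69 points of the gate and from 0.0398 to 0.696 points of all barcodes within the limits. At least 2 UMI of WT1 and WNT6 gave 1.57 and 0.189 points, and cells thinned to 2000 UMI 6.32 and 0.0946.

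Without the filter on low counts the tests called 1596, 795, 339 and 129 genes against HTRA3/JPH1, INHA/AMH-rich and undetected cells and between HLS and LLS. Without the ewe as a block the class comparisons called 568, 111 and 1. With at least 2 UMI of WT1 and WNT6, which left 3 ewes in the class comparisons, the numbers were 481, 38, 25 and 6. DESeq2 called 3 genes between HLS and LLS. Granulosa-led cells alone gave 471 against HTRA3/JPH1 and 8 against undetected cells. Against undetected cells COL1A1 went from 2.13 (adjusted p = 0.0355 in edgeR) to -0.0054 there (adjusted p = 0.9997). The filter was made on a list that holds COL1A1, so this loss is in part its construction. Doublet removal left 8 genes against undetected cells, and at least 5 cells per ewe, an alternative also chosen after the data were seen, 20.

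The labels number the ewes alike in both groups, but deviations of same-numbered ewes did not correlate (-0.0146, 0.0410 and 0.125), so the numbers were not taken as pairs. A replicate block called 4 genes between HLS and LLS, and the paired exact test of the share gave p = 0.5. Of 209 named gene values, 206 stayed on their side of the threshold without TMM factors, 207 with a mitochondrial limit of 20%, 209 with the study's other filters and 193 in DESeq2. No value called in either fit changed sign there, and changes of sign among uncalled values were not counted. Of those that could be fitted, calls were lost for 76 with at least 2 UMI of WT1 and WNT6 (121 stayed on their side) and for 68 without the ewe block (116 stayed). In granulosa-led cells 21 lost their call, 133 stayed and 1 called value changed sign. Not run were the fits on cells thinned to 2000 UMI and those of WNT6 against WT1 cells, since only 1 ewe then had 10 cells. The cells per ewe numbered 6 to 93, which limits the depth of each sum. The cause of these shifts was not tested.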
